A study of Mus musculus with 6 samples.

Results

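Vegfa, Vegfb, Vegfc, Pgf, Angpt1 and Angpt2 encode secreted angiogenic ligands, and Nrp1 and Nrp2 encode neuropilins. They were examined in the RNA of cells sorted by GFP as quiescent muscle stem cells (qMuSCs). Markers of other cell types were also well represented in these libraries, as given below. These 8 genes were listed by name, with earlier results of these data known, and all 8 were found among the 31053 genes of the count table. Of these, 7 passed the expression minimum (a mean of normalized counts above 10) that left 11633 genes for testing, and Vegfc did not.

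RNA-seq libraries were made from cells sorted as qMuSCs from resting hindlimb muscles, with a library per mouse. The mice were 3 controls (WT, named c124, c129 and c130) and 3 with a conditional deletion of Dio2 (cD2KO, named fl125, fl126 and fl128). All 6 mice were 3 to 4 months old and were given tamoxifen. They carried a Pax7-nGFP transgene for nuclear GFP (Pax7nGFP/+) and were homozygous for the floxed Dio2 allele (Dio2Fl/Fl). The cD2KO mice also had Pax7-CreERT2/+, a recombinase that tamoxifen activates in Pax7-expressing cells, where the WT mice had Pax7+/+. The Cre allele thus went with the deletion of Dio2, the gene of the type 2 deiodinase (D2) that makes active thyroid hormone, so that effects of the allele and of the deletion cannot be told apart. Cells were sorted by GFP.

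Vascular endothelial growth factors (VEGF-A, VEGF-B, VEGF-C and placental growth factor) are secreted proteins that bind the receptor tyrosine kinases encoded by Flt1, Kdr and Flt4 on endothelial cells. Angiopoietin-1 activates Tie2, the receptor encoded by Tek, and steadies vessels, whereas angiopoietin-2 binds the same receptor and can oppose it. Neuropilins have no kinase domain and act as co-receptors for VEGF ligands and for class 3 semaphorins. In muscle, satellite cells lie close to capillaries and exchange such ligands with them.

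Total counts ran from 2184073 to 3897787 per mouse. At these depths 3 counts, taken as the floor below which no level was read, stand for 0.768 to 1.36 CPM (counts scaled to a common library size with TMM factors). This floor considers counting error alone. The Dio2 counts were 21, 5 and 10 in WT mice c124, c129 and c130, against 15, 5 and 1 in fl125, fl126 and fl128. Since Dio2 was as high in fl125 (6.80 CPM) as in any WT mouse, this mouse is called the library labelled fl125. It also stood apart over all tested genes, with a score of 72.7 on the first principal component against -50.6 to 7.49 in the other mice. Values without it are given for some genes, and where none is given it may still have mattered.

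The line used here was an unadjusted p under 0.05 in edgeR's quasi-likelihood test. Of the 7 members tested, Nrp1 and Nrp2 passed it and were lower in the cD2KO libraries, and Angpt2 passed it and was higher. Without the library labelled fl125 the neuropilins stayed past it and Angpt2 did not. In the background, 12% of all genes tested passed that line, made up of 6.62% that were lower and 5.34% that were higher. No member had an adjusted p under 0.1, which 0.774% of all genes reached. Nrp1 and Nrp2 were also the members in which the groups did not overlap, as in 18.1% of all genes tested. The share of counts on the members that fell on Nrp1 was the highest of the 8 in each mouse, from 64.7% to 68.6% in WT mice and from 45.8% to 63.1% in cD2KO mice.

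Nrp1 encodes neuropilin-1, which binds VEGF-A and semaphorin 3A. The gene (ENSMUSG00000025810) lies on the plus strand of chromosome 8 of mm10 from 128358604 to 128503363. Its level was 326, 278 and 366 CPM in WT mice c124, c129 and c130, against 191, 218 and 159 CPM in the library labelled fl125, fl126 and fl128. Every cD2KO library was below every WT library, the nearest being c129 of the WT mice and fl126 of the cD2KO mice. The WT mean was 323 ± 44.0 CPM and the cD2KO mean 189 ± 29.8 CPM (SD, n = 3 mice each), so that Nrp1 fell by 41.5% in the fitted model. This is a log2 fold change of -0.77 (standard error 0.20, 95% interval -1.21 to -0.34, unadjusted p = 0.00192, adjusted p = 0.129 by edgeR's quasi-likelihood test). With single mice left out the log2 fold change lay between -0.89 and -0.66, and it was -0.74 without the library labelled fl125. In DESeq2 the adjusted p was 0.0309 and in edgeR without an expression minimum 0.0370, so the adjusted call of Nrp1 depends on the tool and on the filter, and in edgeR without the library labelled fl125 it was 0.0797. In bulk RNA, fewer cells that carry a transcript and less transcript per cell cannot be told apart, which holds for each member.

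Nrp2 encodes neuropilin-2, which binds VEGF-C and semaphorin 3F (ENSMUSG00000025969, plus strand of chromosome 1 from 62703285 to 62818695). Its level was 68.6, 58.9 and 72.4 CPM in WT mice c124, c129 and c130, against 46.7, 33.5 and 43.7 CPM in the library labelled fl125, fl126 and fl128. Again all cD2KO values were under all WT values, and the library labelled fl125 was the highest of its group. The means were 66.6 ± 6.93 and 41.3 ± 6.89 CPM (SD, n = 3 mice each), and Nrp2 fell by 38.2% in the fitted model. The log2 fold change was -0.69 (standard error 0.22, 95% interval -1.17 to -0.22, unadjusted p = 0.00774, edgeR adjusted p = 0.204), and with single mice left out it lay between -0.75 and -0.56.

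Both neuropilin genes thus fell by a similar proportion. Within a mouse, the log2 ratio of Nrp2 to Nrp1 was -2.24, -2.22 and -2.33 in the WT mice and -2.02, -2.68 and -1.85 in the cD2KO libraries in the same order. The WT mice were close together, and the cD2KO libraries lay on both sides of them. The group means of this ratio differed by 0.08, less than its spread in cD2KO mice (SD 0.44; p = 0.8 in a two-sided exact permutation test, where 3 mice against 3 cannot go below 0.1). Without fl128 this difference was -0.08. Without fl126, the lowest, it was 0.33, and the remaining cD2KO libraries lay above all WT mice.

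**Figure D1:**
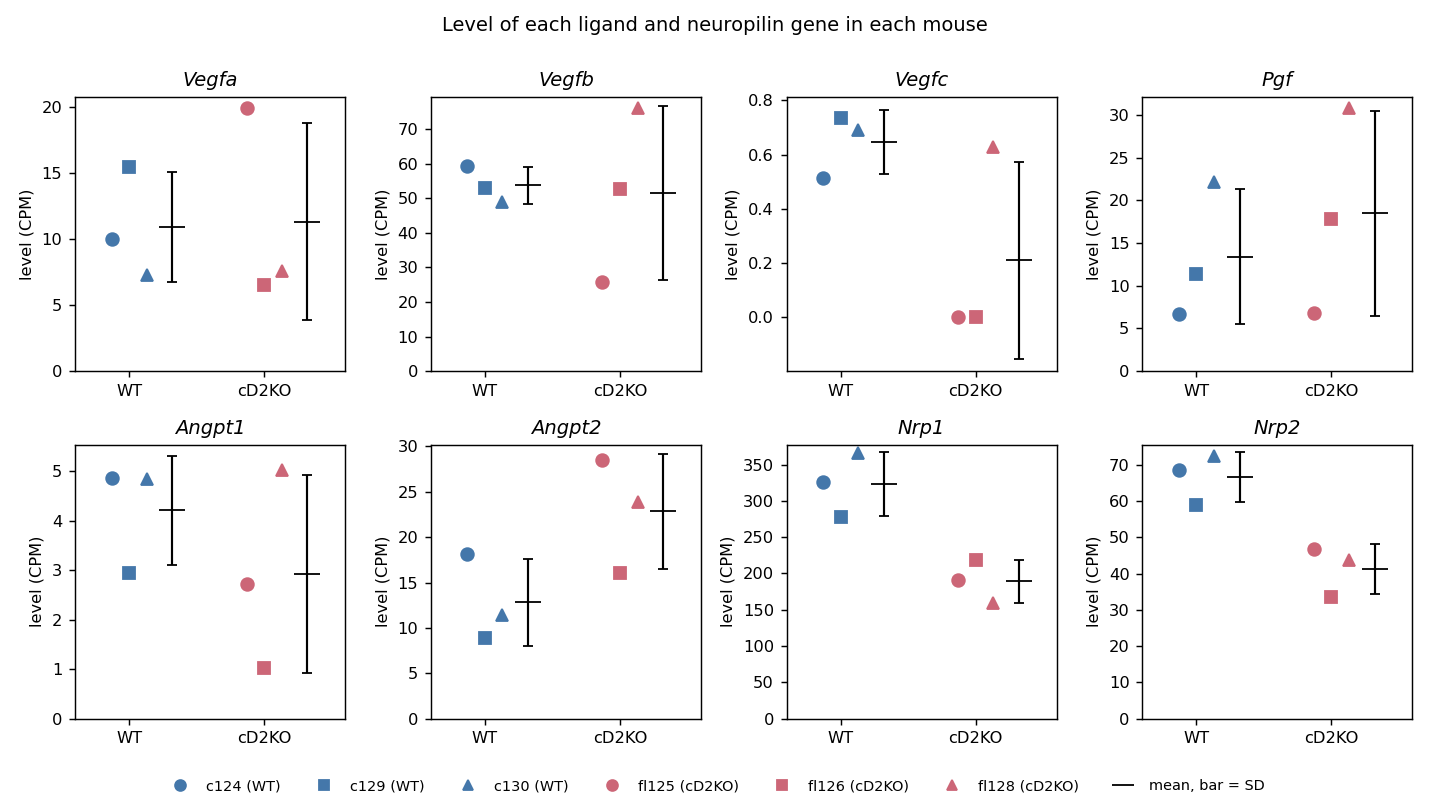
Level in CPM (y axis of each panel, starting at 0 except for Vegfc, whose error bar reaches below 0) of the 8 genes in 3 WT (blue) and 3 cD2KO (red) mice, with the group mean and SD in black. Nrp1 and Nrp2 are separated between the groups, at 278 to 366 against 159 to 218 CPM for Nrp1, while the other genes overlap.

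The promoters of the neuropilin genes were read for short letter patterns because both genes fell and because the study concerns thyroid hormone. Promoter windows of RefSeq on GRCm38.p6 (mm10), from 250 bases before to 50 bases after each annotated start, were found for 6 of the 8 members, all but Angpt1 and Angpt2. The thyroid receptor hexamer AGGTCA was searched on both strands and occurred in 2 of the 8 windows of these members, those of Nrp1 and Vegfb, and in 16.3% of 32851 windows of all genes. The GC box GGGCGG occurred in 7 of the 8 windows, all but the second of Pgf, and in 35.7% of all windows. Both patterns are common, and a match describes letters and not a bound site. The following stretches are shown in the direction of the gene with the match in capitals (TGACCT is the hexamer read on the opposite strand), to let the neuropilin matches be compared with each other and with those of Vegfb, which did not pass the line.

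Nrp1 hexamer, chr8:128358823-128358844: ctagTGACCTtcttcccgcgga
Vegfb hexamer, chr19:6987875-6987901: cggtccttcAGGTCAcgcatctcctca
Vegfb hexamer nearer the start, chr19:6987707-6987736: gagcgcgtgtttAGGTCAcatgagcctctt
Nrp1 GC box, chr8:128358963-128358992: tgtgcggggaggGGGCGGgaggaagggagg
Nrp2 GC box, chr1:62703278-62703307: ggaacacagaagGGGCGGgccctgagcggg

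The Nrp1 hexamer begins 246 bases before the RefSeq start and that of Vegfb 241 and 73 bases before it. No AGGTCA or its complement was found in the Nrp2 window, which says only that these letters are not in it. In GENCODE M21 Nrp1 begins upstream of the RefSeq start, so that the Nrp1 stretches lie within its annotated gene, and the Nrp2 stretch spans the GENCODE start of Nrp2.

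Angpt2 encodes angiopoietin-2 (ENSMUSG00000031465, minus strand of chromosome 8 from 18690263 to 18741562). Its level was 18.2, 8.84 and 11.4 CPM in WT mice c124, c129 and c130, against 28.6, 16.1 and 23.9 CPM in the library labelled fl125, fl126 and fl128. The groups overlapped, since WT mouse c124 was above fl126, and the other cD2KO libraries were above all WT mice. The means were 12.8 ± 4.82 and 22.8 ± 6.30 CPM (SD, n = 3 mice each), and the fitted log2 fold change was 0.81 (standard error 0.37, 95% interval 0.03 to 1.59, unadjusted p = 0.0436, edgeR adjusted p = 0.398). The call rested on several mice. Without c129, c130, the library labelled fl125 or fl128 the log2 fold changes were 0.63, 0.73, 0.66 and 0.77 with an unadjusted p of 0.128, 0.110, 0.118 and 0.0922. It also missed the line in limma voom (adjusted p = 0.434) and in edgeR with scaling to the total count (adjusted p = 0.445).

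Angpt1 encodes angiopoietin-1 (ENSMUSG00000022309, minus strand of chromosome 15 from 42424723 to 42676977). It was near the lower limit of what was tested, with 19, 8 and 14 counts in WT mice and 6, 3 and 16 counts in cD2KO libraries. The highest and the lowest libraries, fl128 at 5.03 CPM and fl126 at 1.03 CPM, were both cD2KO. The log2 fold change was -0.52, with a 95% interval from -2.04 to 0.998 that holds both a large fall and a rise (standard error 0.71, edgeR adjusted p = 0.846). It was -0.69 without c129 and -0.11 without fl126. Angpt1 shares 737 exonic bases with the antisense gene Gm17473, so its counts are uncertain where strand was not used, although Gm17473 itself had 5 counts in all 6 mice.

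The balance of the angiopoietins was compared within each mouse, which needs no scaling between libraries. The log2 ratio of Angpt2 to Angpt1 was 1.77, 1.39 and 1.13 in WT mice c124, c129 and c130, against 3.11, 3.30 and 2.11 for the library labelled fl125, fl126 and fl128. All cD2KO libraries were above all WT mice. The mean log2 ratio was 1.43 ± 0.32 in WT and 2.84 ± 0.64 in cD2KO (SD, n = 3 mice each), a difference of 1.41 (two-sided exact permutation test, p = 0.1, the smallest that 3 mice against 3 allow). Over the fits that left out 1 mouse the difference lay between 1.18 and 1.77. The ratio leans on the few counts of Angpt1, and with a prior count of 0.5 or 5 in place of 2 the difference was 1.56 or 1.21.

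**Figure D2:**
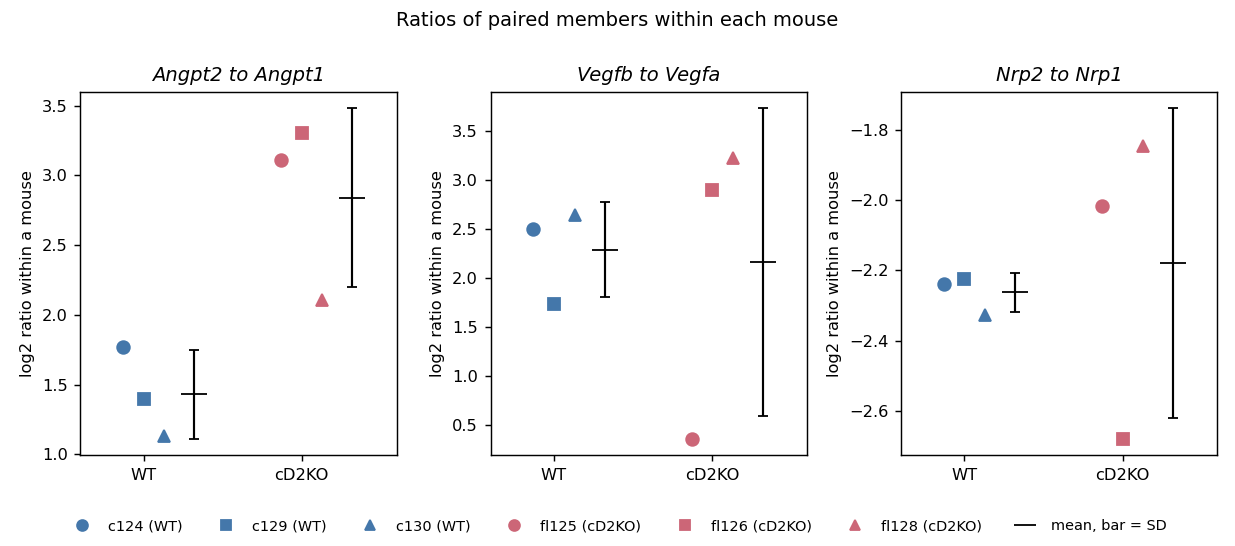
Log2 ratio (y axis, not starting at 0) of 3 pairs of members within each mouse, for 3 WT (blue) and 3 cD2KO (red) mice, with mean and SD in black. For Angpt2 to Angpt1 the WT mice lie between 1.13 and 1.77 and the cD2KO libraries between 2.11 and 3.30, and the groups overlap for the other pairs.

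Vegfa encodes the main VEGF, a ligand of the receptors encoded by Flt1 and Kdr (ENSMUSG00000023951, minus strand of chromosome 17 from 46016993 to 46032369). Its level was 9.98, 15.5 and 7.27 CPM in WT mice and 19.9, 6.50 and 7.54 CPM in the library labelled fl125, fl126 and fl128. The library labelled fl125 was the highest of all and the other cD2KO libraries were among the lowest. The log2 fold change was 0.03, with a 95% interval from -1.03 to 1.10 (standard error 0.50, edgeR adjusted p = 0.988), and it was -0.59 without the library labelled fl125. With all mice, changes within this 95% interval were not excluded in either direction.

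Vegfb encodes VEGF-B, a ligand of the receptor encoded by Flt1 (ENSMUSG00000024962, minus strand of chromosome 19 from 6982473 to 6987651). Its level was 59.4, 53.0 and 48.8 CPM in WT mice and 25.8, 52.7 and 76.1 CPM in cD2KO libraries. The WT mice were close to each other, and the cD2KO libraries held both the lowest value (the library labelled fl125) and the highest (fl128). The log2 fold change was -0.05 (95% interval -0.73 to 0.62, standard error 0.31, edgeR adjusted p = 0.967) and 0.30 without the library labelled fl125. The log2 ratio of Vegfb to Vegfa was 0.36 in the library labelled fl125 and 1.73 to 3.22 in the other 5 mice. The mean in cD2KO minus that in WT was -0.13 (p = 1, two-sided exact permutation test), and 0.77 without the library labelled fl125.

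Pgf encodes placental growth factor, a further ligand of the receptor encoded by Flt1 (ENSMUSG00000004791, minus strand of chromosome 12 from 85166635 to 85177790). It varied within both groups, at 6.66, 11.4 and 22.2 CPM in WT mice c124, c129 and c130, against 6.80, 17.8 and 30.8 CPM in the library labelled fl125, fl126 and fl128. The groups overlapped over most of their ranges. The log2 fold change was 0.49 (95% interval -0.70 to 1.68, standard error 0.54, edgeR adjusted p = 0.788). Without fl128 it was -0.10, and without the library labelled fl125 it was 0.91 and did not pass the line.

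Vegfc encodes VEGF-C, the ligand of the receptor encoded by Flt4 on lymphatic vessels (ENSMUSG00000031520, plus strand of chromosome 8 from 54077606 to 54187096). It had 2 counts in each WT mouse and 0, 0 and 2 counts in the library labelled fl125, fl126 and fl128. All these are under the floor of 3 counts per library, so no fold is given. Reads of Vegfc were seen in the WT mice and in fl128, but too few to compare the groups.

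The members differed in how steady they were between mice. In WT mice the coefficient of variation (SD over mean) was 13.6% for Nrp1, 10.4% for Nrp2 and 9.91% for Vegfb, and it was 59.2% for Pgf, 38.3% for Vegfa and 37.6% for Angpt2. Counting error alone would give 15.7% for Pgf and 17.1% for Vegfa at their mean counts. The spread of Pgf and Vegfa in WT mice was thus larger than counting error, whereas that of Angpt1 (26.1%) was about that of counting (27.1%). In cD2KO libraries Angpt1 varied by 68.7%, above the 34.6% that counting error alone would give. In cD2KO libraries Vegfb varied by 48.8% and the neuropilins by 15.8% and 16.7%.

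Compared per exonic length in WT mice, Vegfb was at 33.5 CPM per kb and Nrp1 at 33.0 CPM per kb. Below them were Nrp2 at 5.63, Pgf at 4.62, Angpt2 at 3.47, Vegfa at 2.55 and Angpt1 at 0.811 CPM per kb. Vegfc was under the floor of 3 counts in each mouse, so it was not ranked. In cD2KO libraries Vegfb stood at 32.1 CPM per kb and Nrp1 at 19.3 CPM per kb. Nrp2, Pgf, Angpt2 and Vegfa neighbour each other in this order and their levels per length were not tested against each other. Whether reads covered whole transcripts or their ends is not given in the sources used here, and per-length levels hold only for the former.

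The receptors of these ligands were compared next. Flt1, which encodes VEGFR1 and its soluble decoy form, was at 38.4, 67.8 and 72.7 CPM in WT mice and at 22.7, 11.3 and 20.7 CPM in cD2KO libraries, with all cD2KO libraries below all WT mice. It fell by 1.71 on the log2 scale (standard error 0.33, unadjusted p = 0.000122, edgeR adjusted p = 0.0885). Kdr, which encodes VEGFR2, the main signalling receptor for VEGF-A, was at 10.5, 19.9 and 27.7 CPM in WT mice and at 5.44, 4.79 and 7.86 CPM in cD2KO libraries. Again the groups did not overlap, and Kdr fell by 1.66 on the log2 scale (standard error 0.44, unadjusted p = 0.00217, edgeR adjusted p = 0.132). Flt1 and Kdr stayed past the line with each mouse left out, at log2 fold changes of -1.95 to -1.46 and -1.97 to -1.31.

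Tek, which encodes Tie2, was at 20.0, 18.8 and 17.7 CPM in WT mice and 8.16, 27.0 and 22.3 CPM in cD2KO libraries. The WT mice lay between the library labelled fl125, the lowest, and the other cD2KO libraries. Its log2 fold change was 0.04 with a 95% interval from -0.79 to 0.87 (edgeR adjusted p = 0.982). It was 0.42 without the library labelled fl125 and -0.28 without fl126. Tie1, an orphan relative of Tie2, and Flt4, which encodes the VEGF-C receptor, were below the expression minimum. Tie1 had 2, 28 and 17 counts in WT and 0, 3 and 9 in cD2KO libraries, and Flt4 had 7, 9 and 0 counts in WT and 0, 6 and 10 in cD2KO libraries.

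**Figure D3:**
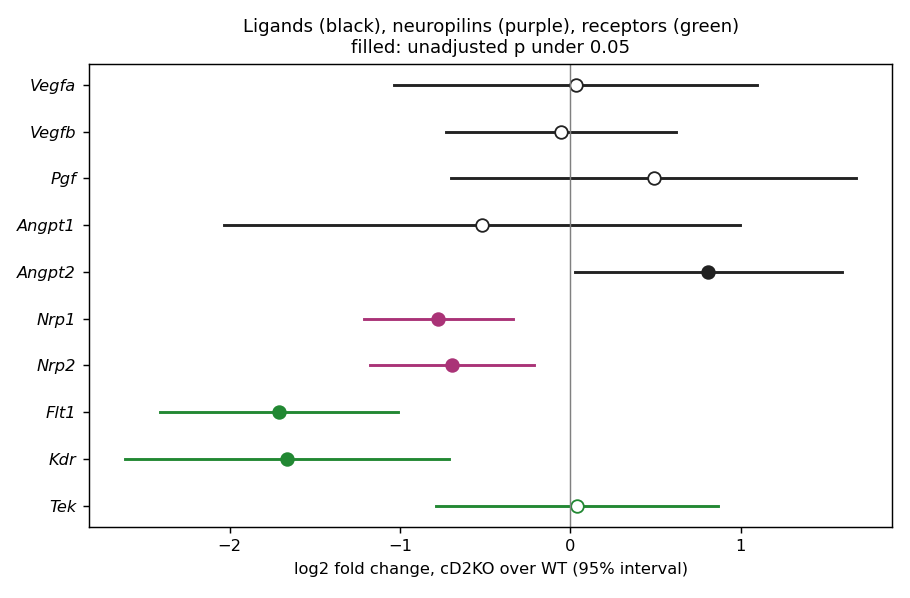
Log2 fold change of cD2KO over WT (x axis, points) with its 95% interval (lines) from edgeR for the 7 tested ligand (black) and neuropilin (purple) genes and the 3 tested receptors (green), filled where the unadjusted p was under 0.05. Nrp1 (-0.77), Nrp2 (-0.69), Flt1 (-1.71) and Kdr (-1.66) lie below 0, Angpt2 (0.81) lies above it, and the intervals of the other genes span 0.

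Markers of other cells moved between the groups with these genes. Of 20 endothelial markers, 16 were tested, and 8 of these fell past the line and 0 rose past it. In 6 of the tested markers all cD2KO libraries lay below all WT mice, and in 1 above. The sum over the 20 was 734 to 1044 CPM in WT and 535 to 618 CPM in cD2KO libraries. It was led by Fabp4, Cd36 and Esam, and which cells these came from was not tested. None of the 20 was at 0 in all mice, and Pecam1, which defines endothelium, had a WT mean of 14.02 ± 4.98 CPM and a cD2KO mean of 3.27 ± 2.61 CPM (SD, n = 3 mice each). The 15 immune markers summed to 4539 to 8600 CPM in WT and 234 to 2982 CPM in cD2KO, the 234 CPM being the library labelled fl125. All 15 had negative log2 fold changes, with a median of -1.89, and -1.35 without the library labelled fl125. In 13 of them all cD2KO libraries lay below all WT mice, where 18.1% of all genes tested did not overlap in either direction. Past the line, 4 were lower and 0 higher, and none was at 0 counts. The lymphatic markers summed to 455 to 658 CPM in WT and 203 to 274 CPM in cD2KO. The lymphatic sum followed Lyve1, which macrophages also express and which was the 1 of the 4 tested that fell (means 370 and 57.5 CPM), while Pdpn, Prox1 and Reln had log2 fold changes of 0.03, 0.04 and -0.13. None rose, and Mmrn1 and Ccl21a of the 6 were at 0.

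The 13 mural markers, led by Acta2, Myh11 and Rgs5, went the other way, with 7 higher and 0 lower and a sum of 6268 to 10514 CPM in WT against 12556 to 18707 CPM in cD2KO libraries. For each of these 4 lists the groups did not overlap (two-sided exact permutation test, p = 0.1, the smallest possible). Fibroadipogenic markers overlapped, at 4672 to 7623 CPM against 2936 to 6041 CPM, with 4 of the 11 tested lower and 1 higher. Schwann cell markers summed to 4629 to 6942 CPM against 6363 to 7038 CPM, with 1 of 7 lower, and muscle fiber genes at 2507 to 5531 and 4643 to 8346 CPM, with 1 of 12 higher.

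Markers of MuSCs were present in all mice, each of the 13 being detected in every library, at a sum of 1301 to 1681 CPM in WT and 1624 to 2019 CPM in cD2KO, with 3 of the 13 higher (Itga7, Cdh15 and Myf5) and 0 lower. Pax7 was at 350 ± 121 and 485 ± 189 CPM (SD, n = 3 mice each), and its groups overlapped. Mural, immune, fibroadipogenic and Schwann markers are thus well represented in these sorted libraries. The endothelial and immune sums, Lyve1 and 4 of the 11 tested fibroadipogenic markers were lower in cD2KO, as were the neuropilins, Flt1 and Kdr. The mural sum, 1 fibroadipogenic marker and 3 MuSC markers were higher, as was Angpt2. The part of these cell types in the differences of the members and receptors was not tested.

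**Figure D4:**
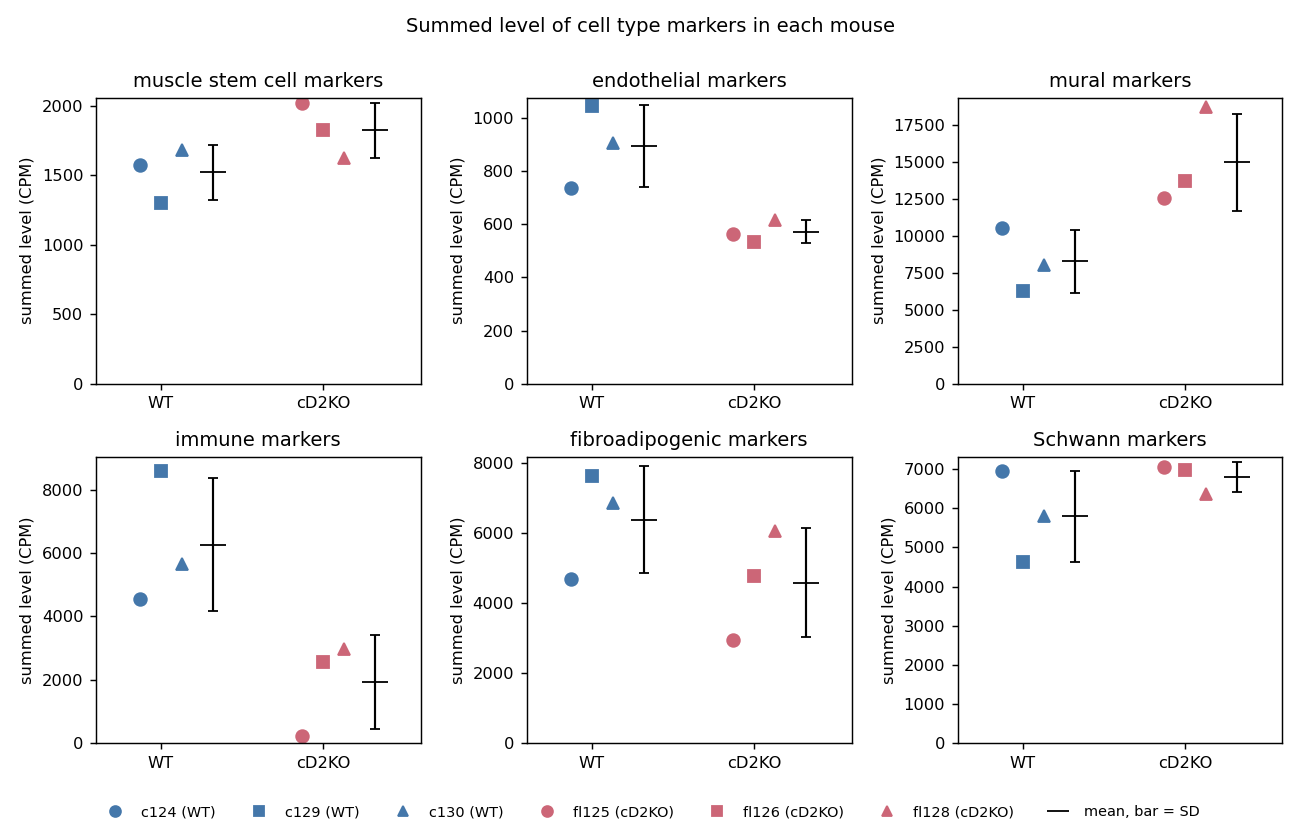
Summed level in CPM (y axes from 0) of the listed markers of 6 cell types in 3 WT (blue) and 3 cD2KO (red) mice, with mean and SD in black. Endothelial and immune sums were lower in all cD2KO libraries (at most 618 and 2982 CPM), mural sums were higher in all of them (at least 12556 CPM), and the other sums overlapped.

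The wider pathway was read from 8 lists of other genes, of which 109 were tested. Past the line were 7 genes that rose and 11 that fell, or 6.42% and 10.1%, against the background shares of 5.34% and 6.62% given above. Without the library labelled fl125 these counts were 9 and 15, without c129 6 fell, and without c130 or fl126 4 or 3 rose. The background moved in the same fits. Without the library labelled fl125, 933 of all 11769 genes tested rose and 874 fell. Without c129, 399 of 11537 fell, and without c130 or fl126, 455 of 11616 or 477 of 11663 rose. With all mice, the median log2 fold change of the 109 pathway genes was -0.03 against -0.02 over all genes tested. Of the 18 genes, 8 stayed past the line with each mouse left out in turn (Flt1, Kdr, Sema3f, Prkcb, Ang, Fgf1, Igf1 and Cxcl10), and 9 did not in at least 1 such fit. Ccl2 was past it in 5 fits and under the expression minimum without c129, where it was not tested. How often called genes outside these lists stayed past the line in each fit was not counted. With all mice, the adjusted p of the 18 genes from edgeR lay at or above 0.0885.

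Of the semaphorins and plexins that pair with neuropilins, 10 of 12 were tested, 1 rose and 0 fell. The gene that rose was Sema3f, whose product semaphorin 3F binds neuropilin-2 and repels endothelial cells. It was at 8.96, 6.998 and 11.8 CPM in WT mice and 17.7, 28.4 and 36.1 CPM in cD2KO libraries, so that the groups were apart and fl128 was the highest. Its log2 fold change was 1.57 (standard error 0.36, edgeR adjusted p = 0.0997), opposite in sign to that of Nrp2. It was 1.84 without the library labelled fl125 (edgeR adjusted p = 0.0164) and 1.32 without fl128 (edgeR adjusted p = 0.309). Sema3c was below all WT mice in all cD2KO libraries, but narrowly, at 10.6 CPM in fl126 against 10.7 CPM in c129. The library labelled fl125 had 2 counts of it, under the floor. Groups did not overlap in 18.1% of all genes tested. Sema3c did not pass the line (log2 fold change -1.23, edgeR adjusted p = 0.453). Plexin genes gave log2 fold changes of -0.46 for Plxna1, 0.02 for Plxna2 and 0.39 for Plxnd1, and none of these passed.

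Of the 8 further VEGF, angiopoietin and angiopoietin-like ligands, 7 were tested. Angptl6, a secreted angiopoietin-like protein, was higher (means 2.47 ± 0.451 and 7.05 ± 3.43 CPM in WT and cD2KO, SD, n = 3 each), with a log2 fold change of 1.51 from edgeR, and it lost the line without c124, c130 or fl126 (log2 fold changes 1.38, 1.502 and 1.05). Angptl7 was lower, with a log2 fold change of -1.72, and lost the line without c129 or fl126 (-1.20 and -1.61). Vegfd, which encodes the other ligand of the VEGF-C receptor, had 20, 11 and 16 counts in WT mice and 3, 13 and 6 counts in cD2KO libraries (log2 fold change -0.91, 95% interval -2.35 to 0.53). The remaining gene of the list was at 0 in all mice.

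The HIF factors drive Vegfa under low oxygen. All 10 HIF factors and regulators were tested, with a median log2 fold change of 0.37 (0.20 without c124 and 0.21 without fl128), and 1 rose and 0 fell. Hif1a was at 58.4, 47.1 and 60.9 CPM in WT mice and 63.4, 87.6 and 93.0 CPM in cD2KO libraries, the library labelled fl125 lying just above the highest WT mouse. Its log2 fold change was 0.55 (standard error 0.22, edgeR adjusted p = 0.346), and without c129, fl126 or fl128 it was 0.47, 0.50 and 0.44 and did not pass. Without the library labelled fl125 it was 0.74. Of the 22 HIF targets, 19 were tested with a median of -0.04, and Aldoa, a glycolytic enzyme, was the gene that rose (log2 fold change 0.63, and 0.54 and 0.47 without c130 or fl128, where it did not pass). 

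Among other secreted angiogenic factors, 18 of 22 were tested, 1 rose and 4 fell. Fgf1, a fibroblast growth factor, rose, and its groups did not overlap. Its WT mean was 106 ± 18.4 CPM and its cD2KO mean 206 ± 76.1 CPM (SD, n = 3 mice each). The log2 fold change was 0.96 (edgeR adjusted p = 0.136). It was 1.23 without the library labelled fl125 (edgeR adjusted p = 0.0106) and 0.65 without fl128 (edgeR adjusted p = 0.399). Igf1 was at 141, 174 and 179 CPM in WT mice and 82.0, 88.0 and 82.7 CPM in cD2KO libraries, with no overlap and a log2 fold change of -0.97 (edgeR adjusted p = 0.0885). Ang, which encodes angiogenin and whose counts are uncertain because it has close copies, Ccl2, a chemokine that draws monocytes, and Ptn, which encodes pleiotrophin, had log2 fold changes of -1.56, -2.82 and -0.82. Without c129 that of Ang was -0.98 and Ccl2, with 64 of its 118 counts in that mouse, was under the expression minimum. Without c129 or fl128 that of Ptn was -0.65 or -0.57 and it did not pass.

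Of 15 secreted inhibitors of angiogenesis, 11 were tested, and Sema3f rose, as above, while Cxcl10, a chemokine induced by interferon, had a log2 fold change of -2.05 (edgeR adjusted p = 0.0997). Of 35 signalling genes below the receptors, 33 were tested, with a median log2 fold change of -0.00, 2 higher and 3 lower. Prkcb, which encodes a protein kinase C, had a log2 fold change of -2.34, at 19.2, 47.1 and 30.5 CPM in WT and 1.36, 6.16 and 10.7 CPM in cD2KO libraries. Mapk14 had -1.01 (-0.64 without c129, where it did not pass) and Cdh5, which encodes VE-cadherin, -1.24 (-1.23, -0.93, -0.89 and -0.999 without c129, c130, the library labelled fl125 or fl126, where it did not pass, and -2.05 without fl128). Hspb1 and Mapk3 were higher by 0.55 and 0.57, and were no longer past the line in 4 and 3 of the fits that left out a mouse, respectively. For Hspb1 these were the fits without c124, c129, the library labelled fl125 and fl126 (0.53, 0.44, 0.43 and 0.59), and for Mapk3 those without c129, c130 and fl126 (0.44, 0.45 and 0.57), while without c124 Mapk3 was at 0.90.

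**Figure D5:**
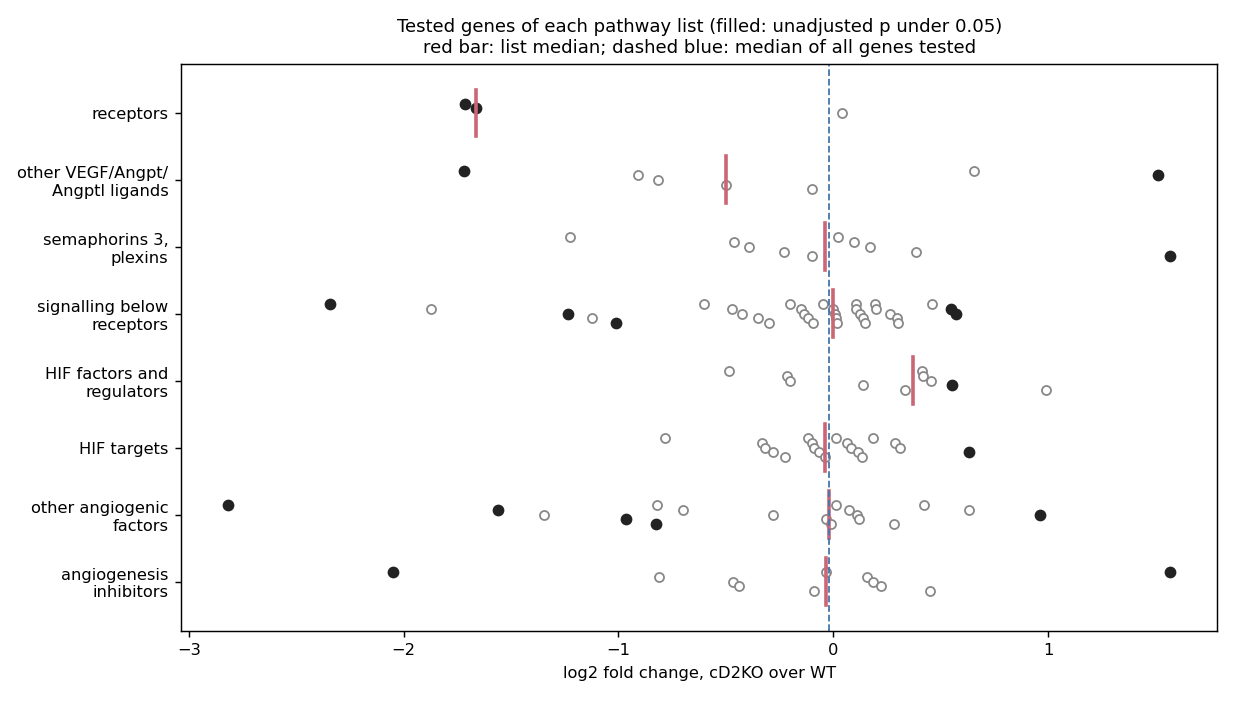
Log2 fold change of cD2KO over WT (x axis) of each tested gene of the 8 pathway lists (rows), filled where the unadjusted p was under 0.05, with the list median in red and the median of all genes tested (-0.02) as a dashed line. The list medians lie between -0.50 and 0.37 apart from the receptors at -1.66, where Flt1 and Kdr were lower and Tek was near 0.

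The genes whose log2 CPM followed each member most closely over the 6 mice were listed as a description, since the best of 11633 genes over 6 points that share their libraries is high for any gene. For Nrp1 they were Casp9 (Pearson's r = 0.991), Sh3bp1 (0.989) and Mcm4 (0.985), and for Nrp2 they were Zeb2os (0.986), Simc1 (0.984) and Srsf11 (0.984). For Angpt2 they were Prelid3a (0.994), Polrmt (0.989) and D17Wsu92e (0.986), and for Angpt1 Frmd8 (0.982), Fam13a (0.981) and Katnal1 (0.974). Vegfa was closest to Ufl1 (0.993), Alkbh5 (0.992) and Aftph (0.989), Vegfb to Flot2 (0.999), Ap1ar (0.986) and Gypc (0.985), and Pgf to Nptn (0.990), Lmna (0.974) and Gnl1 (0.973). Between members, r over the 6 mice was 0.80 for Nrp1 and Nrp2, 0.74 for Angpt1 and Nrp2, -0.69 for Angpt2 and Nrp1 and -0.73 for Pgf and Vegfa. No member was among the 3 nearest genes of another.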

How the data were processed

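RNA-seq of sorted qMuSCs from 3 WT and 3 cD2KO mice was analysed from the raw counts that the authors deposited, whole numbers of reads per gene without normalization, with a column per mouse. RNA had been extracted with a column kit (RNeasy), and the submitters' processing notes name bcl2fastq, STAR 2.6.0a, HTSeq 0.9.1 and mm10. The annotation, the strand setting and any removal of PCR duplicates are not given in the sources used here. Groups came from the genotype in the labels. No label says whether mice were processed in batches.

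Symbols and positions came from GENCODE M21 (mm10), which held 31011 of the 31053 identifiers, and 3 listed symbols were matched through newer names. As in the study's methods, a gene was tested if its normalized counts (DESeq2 size factors) averaged over 10. Counts were scaled by TMM and tested with edgeR 4.0.16 (R 4.3.3; quasi-likelihood, robust, all 6 mice, no covariate), with Benjamini-Hochberg adjustment over the 11633 genes tested. Intervals are 95% intervals of the same fit. Log2 CPM used a prior count of 2. The test was tested on simulated counts first. DESeq2 1.42.0, limma voom 3.58.1, other scalings and filters, and leaving out each mouse were the alternatives.

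The members and gene lists were chosen with earlier results of these data known. The genes named were the 8 members, the 5 receptors, the genes of each pathway list past the line (up to 5 per direction), leading or defining markers and the 3 genes nearest to each member. Sema3c, the plexins, Vegfd, Pax7, Pecam1 and Prox1 were named after their values were seen. Total counts of 2184073 to 3897787 limit the precision for genes near the floor of 3 counts.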

Additional observations from a re-analysis of the deposited data

How the results depend on the processing

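Nrp1 and Nrp2 kept their direction and stayed past an unadjusted p of 0.05 in all 15 alternative fits each, with adjusted p of 0.0309 to 0.397 for Nrp1 and 0.127 to 0.515 for Nrp2. The number of members lower was 2 in all fits and that of members higher 1 or 0. With the calls taken at an adjusted p under 0.1, 0 members were lower and 0 higher, and 57 and 33 of all genes. Angpt2 missed the line in limma voom (0.77), with scaling to the total count (0.75) and with a minimum mean of 50 (0.78), where 0 members were higher, and with single mice left out its log2 fold change was 0.63 to 1.16. Vegfa was -0.15 in limma voom and -0.024 with scaling to the total count. Without a minimum 939 of all genes were higher, and with a minimum mean of 50 505 were lower, where fewer genes are tested. The cause of the other changes was not tested.

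With single mice left out, the log2 fold change ran from -0.59 to 0.37 for Vegfa, from -0.45 to 0.30 for Vegfb, from -0.10 to 1.06 for Pgf and from -0.28 to 0.42 for Tek, the difference in the log2 ratio of Vegfb to Vegfa from -0.66 to 0.77 and of Nrp2 to Nrp1 from -0.084 to 0.33. Angpt1 ran from -0.69 to -0.11 in 3 of these fits and was under the minimum in the other 3. All genes higher ran from 402 to 933 and all genes lower from 399 to 874 (933 and 874 without the library labelled fl125, 402 higher without fl128 and 399 lower without c129), pathway genes higher from 3 to 9 and lower from 6 to 15. List medians ran from -1.95 to -1.31 for the receptors, -0.56 to -0.17 for the other ligands, -0.074 to -0.00059 for the signalling genes, 0.20 to 0.46 for the HIF factors and regulators, -0.11 to 0.11 for the HIF targets, -0.21 to 0.03 for the other secreted angiogenic factors, 0.057 to 0.35 for the MuSC markers and 0.072 to 0.25 for the Schwann markers. Depth limits Vegfc, which was under the floor in each mouse, and Angpt1, Tie1 and Flt4, which had few counts in some mice.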
